A study of Mus musculus with 22 samples.

Results

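The cell cycle genes described here are 40 mouse genes that encode the cyclins, cyclin-dependent kinases, kinase inhibitors, replication factors and mitotic proteins of the division cycle. They were chosen by symbol, without reference to a level or a test, and all 40 were found among the 55487 Ensembl genes of the deposited tables. RNA had been sequenced from 22 libraries of cells from the spleens of wild-type male C57BL/6 mice. Monocytes received vehicle (replicates 1 to 6, n = 6) or 50 µg/mL oxidised low-density lipoprotein (ox-LDL, replicates 7 to 11, n = 5) for 24 hours. Macrophages, made from such monocytes with 200 ng/mL phorbol myristate acetate (PMA) over 5 days, received vehicle (replicates A to E, n = 5) or the same ox-LDL dose (replicates G to L, n = 6). PMA and its 5 days of culture belong to every macrophage library and to no monocyte library, so they and the cell type cannot be told apart. The labels do not tie replicates to separate mice or cultures, so p-values measure the spread between these samples, which may be technical.

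A cell enters division when D-type cyclins with CDK4 or CDK6, and then cyclin E with CDK2, phosphorylate the retinoblastoma protein and free E2F factors, which raise the genes of DNA replication. Cyclin A, cyclin B and CDK1 then drive mitosis, and the anaphase-promoting complex ends it by marking mitotic proteins for destruction. Mature monocytes circulate largely outside the cycle, whereas tissue macrophages can divide in place. PMA is widely used to turn monocytic cells into adherent, non-dividing macrophage-like cells.

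Transcription of these genes is timed by short promoter elements, and 5 promoters that show the classes are given before the levels. A CHR element (searched as TTTGAA or TTCGAA) is bound by the MuvB core of the DREAM complex, which holds mitotic genes down in resting cells. CCAAT is the box bound by NF-Y. E2F sites were searched as TTTCCCGC, TTTGGCGC, TTTCGCGC and TTTGCCGC. All were searched on both strands, and capitals below mark every match, including matches that overlap each other. Windows are from RefSeq on GRCm38.p6, 250 bases before to 50 bases after a gene's start, read 5′ to 3′ on the gene's strand. Ccnb2 (chr9:70421505-70421804, minus strand), Ube2c (chr2:164769679-164769978, plus strand) and Cdc20 (chr4:118437294-118437593, minus strand) were the mitotic genes with the largest differences between cell types. Cdk1 (chr10:69352863-69353162, minus strand) is the mitotic kinase that differed the other way, and Mcm5 (chr8:75109259-75109558, plus strand) stands for the replication genes.
Ccnb2: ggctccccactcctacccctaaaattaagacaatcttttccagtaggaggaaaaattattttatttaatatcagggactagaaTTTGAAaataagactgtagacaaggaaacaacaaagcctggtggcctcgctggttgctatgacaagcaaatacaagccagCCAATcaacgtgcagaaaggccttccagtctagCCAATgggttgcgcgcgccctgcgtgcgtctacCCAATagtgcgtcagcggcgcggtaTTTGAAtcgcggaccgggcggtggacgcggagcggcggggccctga
Ube2c: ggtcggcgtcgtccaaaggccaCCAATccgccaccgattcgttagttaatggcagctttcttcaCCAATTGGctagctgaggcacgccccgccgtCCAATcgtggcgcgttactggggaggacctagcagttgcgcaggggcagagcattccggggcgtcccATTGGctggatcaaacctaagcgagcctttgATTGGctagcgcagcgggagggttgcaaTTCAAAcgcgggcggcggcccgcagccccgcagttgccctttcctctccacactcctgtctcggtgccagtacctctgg
Cdc20: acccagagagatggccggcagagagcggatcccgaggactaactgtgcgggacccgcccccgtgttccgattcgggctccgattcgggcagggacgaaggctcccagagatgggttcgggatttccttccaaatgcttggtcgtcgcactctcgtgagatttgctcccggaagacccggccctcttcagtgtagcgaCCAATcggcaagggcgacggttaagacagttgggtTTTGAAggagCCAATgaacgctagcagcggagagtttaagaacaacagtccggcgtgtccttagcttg
Cdk1: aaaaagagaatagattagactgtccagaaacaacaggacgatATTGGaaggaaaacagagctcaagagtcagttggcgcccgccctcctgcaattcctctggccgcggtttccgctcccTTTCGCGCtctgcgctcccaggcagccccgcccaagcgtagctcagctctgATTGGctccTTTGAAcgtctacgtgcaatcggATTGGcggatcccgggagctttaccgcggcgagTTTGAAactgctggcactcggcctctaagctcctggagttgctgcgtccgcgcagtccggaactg
Mcm5: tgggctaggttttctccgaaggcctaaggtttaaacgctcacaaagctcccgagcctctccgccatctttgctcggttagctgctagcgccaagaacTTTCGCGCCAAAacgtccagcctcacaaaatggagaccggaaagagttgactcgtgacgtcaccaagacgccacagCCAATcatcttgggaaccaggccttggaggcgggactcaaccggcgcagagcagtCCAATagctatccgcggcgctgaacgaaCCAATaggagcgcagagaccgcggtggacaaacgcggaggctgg
Ccnb2 holds 2 CHR matches, of which 1 starts at base 5 after the start site, and 3 CCAAT matches. Cdk1 holds 2 CHR matches, 3 CCAAT matches and an E2F match, so CHR and CCAAT matches are in both Cdk1 and Ccnb2. The levels of these 2 genes differed in opposite directions between the cell types. The part of these elements in the levels was not tested. Mcm5 holds 2 overlapping E2F matches and 3 CCAAT matches, with no CHR match in this window.

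Windows were found for 34 of the 40 genes (39 windows), and Aurkb, Ccna2, Ccnd2, Ccne2, Mcm4 and Tpx2 had none. A CHR match was in 35.9% of the member windows and in 19.2% of all 32851 windows. CCAAT was in 71.8% of member windows and 37.4% of all windows, and an E2F match in 17.9% and 2.26%. By role, CHR matches were in both genes of the anaphase-promoting complex (Cdc20 and Ube2c), in 4 of 5 mitotic kinase and checkpoint genes with a window and in 2 of 3 mitotic cyclin and CDK1 genes. None of the 3 D-type cyclin and kinase genes with a window, nor the 4 CDK inhibitor genes, held one. E2F matches were in 4 of 5 MCM genes with a window, and also in Cdk1, Cdk2 and Cdkn2a. CHR matches were in 2 of the 5 MCM genes (Mcm2 and Mcm7), so the elements do not split cleanly by role. A match describes letters and does not show that a factor binds.

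Library totals ran from 37330389 to 50257111 counts, and 3 counts corresponded to 0.0597 to 0.0804 CPM (the count scaled to a fixed library total). Levels below are CPM on library sizes scaled by TMM. The summed macrophage markers were 46223 to 63912 CPM in the macrophages and 7941 to 18374 CPM in the monocytes. The summed monocyte markers were lower in the libraries labelled monocytes (883 to 2253 CPM) than in the macrophages (2772 to 7269 CPM). Not all 10 of these markers went the same way, and the sums rest mostly on the most abundant ones. The monocyte libraries also held markers of other spleen cells: dendritic cell markers summed to 7402 to 12501 CPM, against 68.6 to 246 CPM in the macrophages, and neutrophil markers to 5594 to 50851 CPM, against 133 to 341 CPM. In bulk RNA, fewer cells of a type and less RNA per cell cannot be told apart.

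The libraries fell into sets that cross the treatments, and the sets matter for the mitotic genes. Monocyte replicates 5, 6, 10 and 11 had summed neutrophil markers of 35054 to 50851 CPM (neutrophil-high, above a limit of 10000 CPM), while the other 7 had 5594 to 6859 CPM. Monocyte replicates 1, 2 and 7 had summed erythroid markers of 489 to 909 CPM (erythroid-low, below 2000 CPM), against 6639 to 14552 CPM elsewhere. Macrophage replicates C, D, I and J had 9.06 to 16.3 CPM of F13a1, a coagulation factor subunit made by monocytes and some macrophages (F13a1-low, below 50 CPM), and the other 7 had 181 to 411 CPM. The limits were set with the values in view, the sets are not groups of the study, and the labels name no batch.

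**Figure D1:**
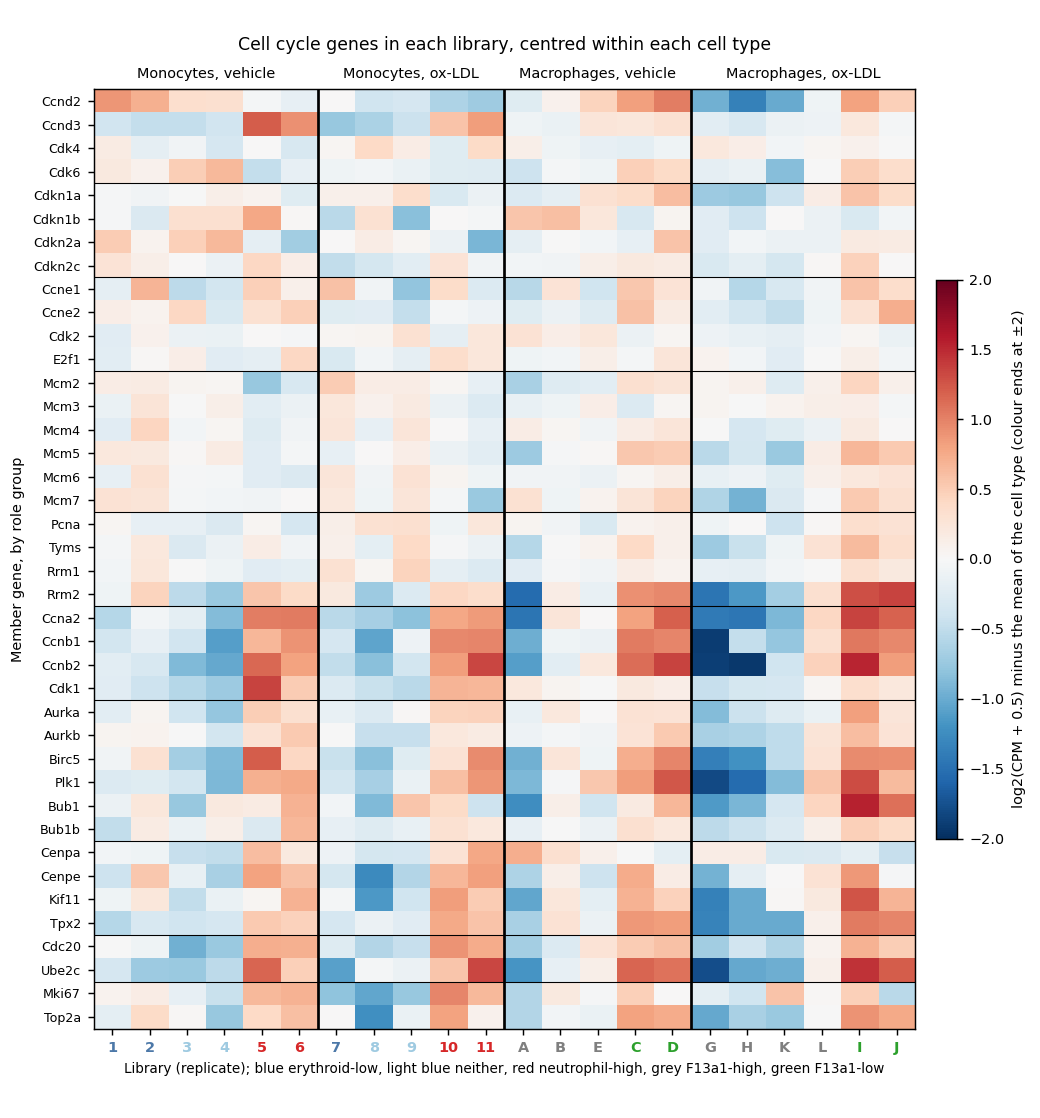
Each cell of the map is 1 of the 40 genes (rows, by role group) in 1 of the 22 libraries (columns), coloured by log2(CPM + 0.5) minus the mean of that gene over the 11 libraries of its cell type. Most mitotic genes in the lower part are red in monocyte replicates 5, 6, 10 and 11 and in macrophage replicates C, D, I and J. This holds under either treatment. Cenpa and Mki67 are among the exceptions in macrophages.

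The first comparison asks how the genes differ between macrophages and monocytes. Per length, the most abundant of the 40 genes in vehicle-treated monocytes was Cdkn1a at 244 ± 38.0 TPM (mean ± SD, n = 6), followed by Pcna, Ccnd3 and Cdk4 at 50.2 ± 7.27, 49.5 ± 22.2 and 46.7 ± 8.204 TPM, which do not differ beyond their spread. In vehicle-treated macrophages Cdkn1a was again highest at 178 ± 51.3 TPM (n = 5), followed by Cdk4 at 83.4 ± 1.78, Pcna at 78.8 ± 9.36 and E2f1 at 51.2 ± 6.62 TPM. The mitotic genes were low in both, with Cenpe at 0.716 ± 0.312 TPM in monocytes and 0.438 ± 0.247 TPM in macrophages.

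With vehicle, 7 of the 40 genes were higher in macrophages, 16 were lower and 17 were not called (edgeR's quasi-likelihood test, adjusted p under 0.05 over all 16288 genes tested). Over all genes tested, 63.7% were called, 28.5% higher and 35.1% lower, so a call between these cell types is common. With ox-LDL, 8 were higher, 15 lower and 17 not called, where 65.4% of the 15825 genes tested were called, 30.3% higher and 35% lower. The median log2 fold change of the 40 genes was -0.59 with vehicle and -0.67 with ox-LDL, beside -0.09 and -0.07 over all genes tested. No overlap between the groups, as a stricter rule, was met with vehicle by 6 genes that were higher (24.4% of all genes tested) and 9 that were lower (24.9%), and with ox-LDL by 7 higher (24.6%) and 7 lower (24.9%). The higher genes act at entry to the cycle and in replication, apart from Cdk1. The lower genes came from the same stages (cyclins D2 and D3, Cdk2, Tyms and several MCM subunits) as well as from the kinase inhibitors and the mitotic genes.

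**Figure D2:**
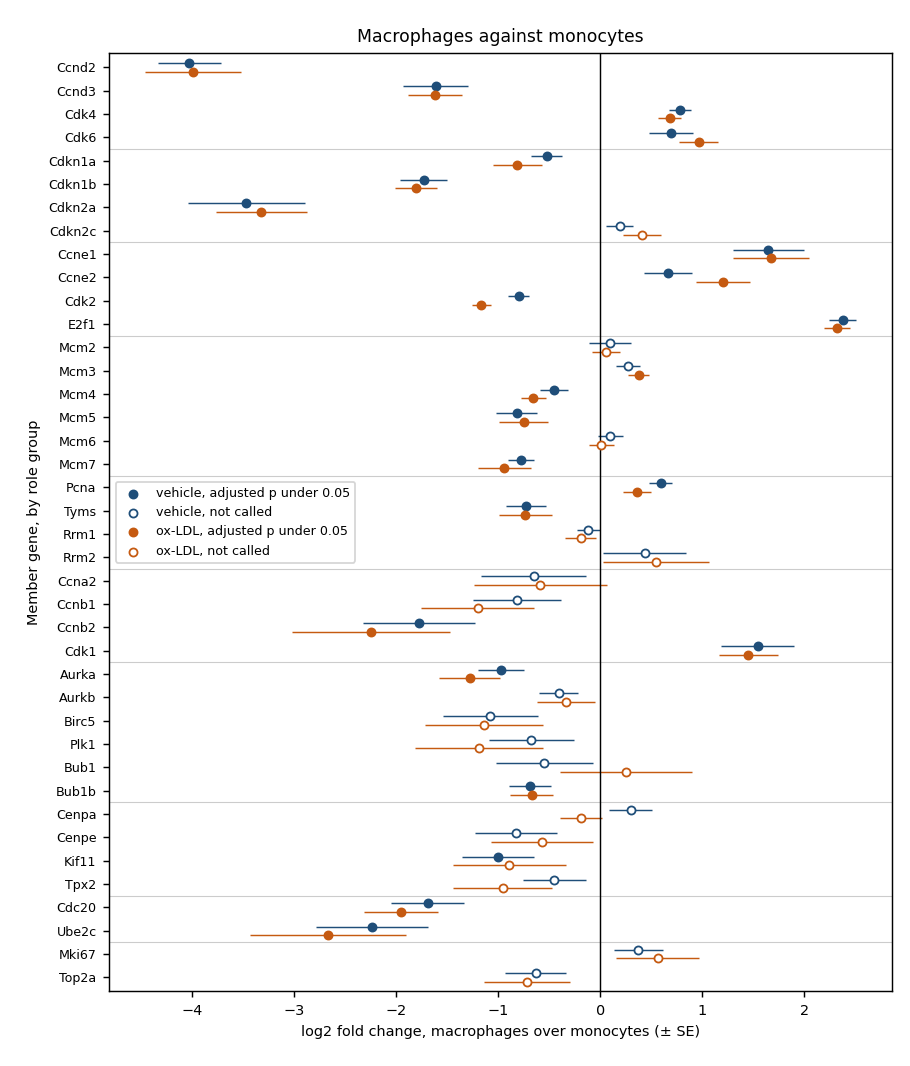
Points are log2 fold changes of macrophages over monocytes (x axis) with SE bars for the 40 genes (y axis), with vehicle in blue and with ox-LDL in orange, and filled points have an adjusted p under 0.05. E2f1 lies farthest to the right at 2.38 with vehicle and Ccnd2 farthest to the left at -4.03.

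The 2 D-type cyclins among the 40 genes, which couple growth signals to the cycle, were lower in macrophages while their kinases were higher. Ccnd1, a D-type cyclin outside the 40, was lower with vehicle by DESeq2 (log2 fold change -1.58, adjusted p = 3.62e-08). With ox-LDL it was not called (-0.09, adjusted p = 0.860). Ccnd2 (cyclin D2, ENSMUSG00000000184, chromosome 6 from 127125162 to 127152193 on the minus strand) was at 58.5, 52.0, 39.6, 39.3, 30.5 and 28.04 CPM in vehicle monocytes 1 to 6 and at 31.8, 23.8, 24.9, 20.4 and 19.0 CPM in ox-LDL monocytes 7 to 11. In macrophages it was at 1.40, 1.90, 3.50, 4.07 and 2.57 CPM with vehicle and at 0.656, 0.380, 3.44, 2.63, 0.627 and 1.63 CPM with ox-LDL. Every macrophage library lay below every monocyte library. The log2 fold change was -4.03 ± 0.31 (SE) with vehicle (adjusted p = 7.39e-08) and -3.99 ± 0.47 with ox-LDL (adjusted p = 6.44e-06). Ccnd2 remained called under every alternative run for these comparisons.

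Ccnd3 (cyclin D3) was at 99.2 to 106 CPM in vehicle monocytes 1 to 4 and at 320 and 262 CPM in the neutrophil-high replicates 5 and 6. Macrophages held 47.3 to 64.1 CPM with vehicle and 41.4 to 60.2 CPM with ox-LDL, below every monocyte library. Its log2 fold change of -1.61 ± 0.32 with vehicle (adjusted p = 0.000492) became -0.97 without the neutrophil-high monocytes (adjusted p = 3.94e-06). The direction was the same without these libraries and the difference was smaller. Cdk4, the partner kinase, was at 46.5 to 65.5 CPM in vehicle monocytes and at 91.1 to 113 CPM in vehicle macrophages, with no overlap (log2 fold change 0.78 ± 0.11, adjusted p = 2.76e-05). Cdk6, the second partner, was higher by 0.69 ± 0.22 with vehicle (adjusted p = 0.0122) and by 0.96 ± 0.19 with ox-LDL (adjusted p = 0.000664), and without the F13a1-low macrophages the vehicle difference was not called (0.49, adjusted p = 0.0815).

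Among the kinase inhibitors, 3 of 4 were lower in macrophages. Cdkn1b (p27, which restrains cyclin E with CDK2) was at 8.05 to 17.4 CPM in vehicle monocytes and at 2.32 to 4.84 CPM in vehicle macrophages, which gave a log2 fold change of -1.73 ± 0.23 (adjusted p = 1.68e-05). The ranges do not overlap, and with ox-LDL the difference was -1.80 ± 0.21 (adjusted p = 4.47e-06). Cdkn2a, the locus of p16 and p19ARF, was low everywhere: 0.553 to 2.19 CPM in vehicle monocytes and 0.0424 to 0.417 CPM in vehicle macrophages, where it rested on 2 to 17 counts per library. Its log2 fold change was -3.47 ± 0.57 with vehicle (adjusted p = 0.000117), and with vehicle no macrophage library overlapped the monocytes. A gene-level count does not separate the 2 products of this locus.

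Cdkn1a (p21, a p53 target that blocks cyclin-dependent kinases) was at 265, 310.1 and 342 CPM (lowest, median and highest) in vehicle monocytes. Vehicle macrophages A, B and E held 163, 174 and 244 CPM, and the F13a1-low replicates C and D held 254 and 302 CPM. All vehicle macrophages but D thus lay below the vehicle monocytes. The call with vehicle (-0.53 ± 0.15, adjusted p = 0.00826) was lost when the F13a1-high macrophages were left out (-0.16, adjusted p = 0.401). Cdkn2c (p18, an inhibitor of CDK4 and CDK6) was not called, with a log2 fold change of 0.19 ± 0.13 with vehicle (adjusted p = 0.227).

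E2f1, a G1/S gene, had the highest fold change of the 40 genes in both comparisons. It encodes an activating transcription factor of the S phase programme (ENSMUSG00000027490, chromosome 2 from 154559407 to 154569892 on the minus strand). It was at 9.07, 10.8, 11.6, 8.92, 9.29 and 14.2 CPM in vehicle monocytes 1 to 6. Vehicle macrophages A to E held 53.6, 54.8, 55.1, 67.2 and 61.6 CPM, and ox-LDL macrophages 48.7 to 61.5 CPM. Every macrophage library lay above every monocyte library, and the ranges of the F13a1 sets overlapped. The log2 fold change was 2.38 ± 0.13 with vehicle (adjusted p = 3.11e-09) and 2.32 ± 0.13 with ox-LDL (adjusted p = 5.99e-09), and it lay between 2.23 and 2.51 over all alternatives of both comparisons.

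Ccne1 (cyclin E1) was at 0.538 to 1.88 CPM in vehicle monocytes and at 2.12 to 5.14 CPM in vehicle macrophages, without overlap (1.65 ± 0.35, adjusted p = 0.000895). Ccne2 (cyclin E2) was higher by 0.66 ± 0.23 with vehicle (adjusted p = 0.0239) and by 1.20 ± 0.26 with ox-LDL (adjusted p = 0.00125). Its vehicle call was lost without the F13a1-low macrophages (0.41, adjusted p = 0.194), without macrophage C alone (adjusted p = 0.0695) and without monocyte 4 (adjusted p = 0.0506). Their partner Cdk2 went the other way: 49.1 to 61.3 CPM in vehicle monocytes against 28.3 to 37.7 CPM in vehicle macrophages (-0.80 ± 0.10, adjusted p = 1.14e-05). Cdk2 and Pmel, a pigment cell gene, have exons that overlap on opposite strands, and the strand setting of the counting is not given in the sources used here. Such overlaps also hold for Ccnd3 (with Bysl), Cdk4 (Tspan31), Ccne2 (Ints8), Ccna2 (Exosc9), Cdc20 (Elovl1) and Ube2c (Tnnc2). Ccnd2, Cdk6, Cdkn1a and Plk1 overlap less-known genes in the same way. The counts of all these genes may therefore take reads from their neighbours.

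The MCM genes, which encode the 6 subunits of the replicative helicase, did not differ as a block. Mcm4, Mcm5 and Mcm7 were lower in macrophages with vehicle (-0.45 ± 0.13, -0.82 ± 0.20 and -0.78 ± 0.13). Mcm2 and Mcm6 were not called, and Mcm3 was called higher with ox-LDL (0.38 ± 0.11, adjusted p = 0.00671) and not with vehicle (0.28 ± 0.12, adjusted p = 0.0534). The ox-LDL call of Mcm3 was lost with library totals in place of TMM (adjusted p = 0.0594) and without the F13a1-high macrophages (adjusted p = 0.115). Mcm6 was at 55.7 to 83.9 CPM in vehicle monocytes and at 68.9 to 80.9 CPM in vehicle macrophages, so its ranges overlap widely. Mcm5 was at 23.3 to 31.8 CPM in vehicle monocytes; the F13a1-low macrophages C and D held 22.9 and 22.4 CPM, and A, B and E held 9.23, 15.4 and 16.03 CPM. Its call (adjusted p = 0.00274 with vehicle) and that of Mcm4 (-0.28, adjusted p = 0.248) were lost without the F13a1-high macrophages, where Mcm5 was at -0.35 (adjusted p = 0.1005). Exons of Mcm7 overlap those of Cops6 and Ap4m1 and hold Mir25 and Mir93, so its count may take reads from them.

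Of the genes for nucleotide supply and the sliding clamp, Pcna (the clamp that tethers DNA polymerase) was at 37.5 to 49.1 CPM in vehicle monocytes and at 56.5 to 74.7 CPM in vehicle macrophages (0.59 ± 0.11, adjusted p = 0.000297). With ox-LDL its difference was 0.36 ± 0.13 (adjusted p = 0.0302), a call lost in 8 of the 20 alternatives. Tyms (thymidylate synthase) was lower, at -0.73 ± 0.20 with vehicle (adjusted p = 0.00546), and without the F13a1-high macrophages at -0.40 and not called (adjusted p = 0.187). Rrm1 and Rrm2, the subunits of ribonucleotide reductase, were not called. With the F13a1-high macrophages left out, which leaves few macrophage libraries, Rrm2 was called higher with vehicle (1.17, adjusted p = 0.0189) and with ox-LDL (1.56, adjusted p = 0.00292). With the neutrophil-high monocytes left out, Rrm1 was called lower with ox-LDL (-0.40, adjusted p = 0.0165). Rrm2 spanned 1.82 to 12.7 CPM over the vehicle macrophages alone, with its highest values of 12.3 and 12.7 CPM in the F13a1-low replicates C and D.

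The mitotic cyclins and their kinase parted ways. Ccnb2 (cyclin B2) was at 6.92, 6.33, 4.17, 3.71, 18.6 and 14.4 CPM in vehicle monocytes 1 to 6 and at 0.552, 1.46, 4.40, 5.24 and 2.12 CPM in vehicle macrophages A to E. It was highest in the neutrophil-high monocytes 5 and 6, and within the macrophages in the F13a1-low replicates C and D, which overlapped monocytes 3 and 4. The log2 fold change of -1.78 ± 0.55 (adjusted p = 0.0115) was -1.05 without the neutrophil-high monocytes (adjusted p = 0.0735) and -0.92 without the F13a1-high macrophages (adjusted p = 0.238). The call for Ccnb2 was thus lost without either set, while the direction stayed the same. Without the F13a1-high macrophages 2 macrophage libraries remained, so fewer libraries and a smaller difference cannot be told apart there.

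Cdk1, the mitotic kinase that cyclin B activates, was at 2.58, 2.19, 1.92, 1.68, 8.63 and 4.63 CPM in vehicle monocytes and at 11.8, 10.5, 11.6, 11.1 and 10.0 CPM in vehicle macrophages. Every macrophage library lay above every monocyte library with vehicle and with ox-LDL (7.16 to 12.9 CPM against 1.96 to 5.24 CPM). The log2 fold change was 1.54 ± 0.36 (adjusted p = 0.00181) with vehicle and 2.29 without the neutrophil-high monocytes (adjusted p = 6.33e-08). Ccna2 (cyclin A2) and Ccnb1 (cyclin B1) were not called, at -0.65 ± 0.52 and -0.82 ± 0.43 with vehicle. With the F13a1-low macrophages left out, Ccnb1 was called lower in both comparisons (-1.56 and -2.01, adjusted p = 0.0150 and 0.00895). Ccna2 was then called lower with ox-LDL (-1.74, adjusted p = 0.0287).

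Both genes of the anaphase-promoting complex pathway were lower in macrophages. Ube2c, its ubiquitin-conjugating enzyme, was at 6.43, 4.78, 4.73, 5.59, 19.2 and 11.7 CPM in vehicle monocytes 1 to 6 and at 0.297, 1.10, 3.53, 3.31 and 1.44 CPM in vehicle macrophages A to E. The groups do not overlap (-2.24 ± 0.55, adjusted p = 0.00273), and the gap between the F13a1-low macrophages C and D and monocytes 2 and 3 was the narrowest. Cdc20, its activator, was at 5.51 to 18.9 CPM in vehicle monocytes and at 1.93 to 5.39 CPM in vehicle macrophages (-1.69 ± 0.36, adjusted p = 0.000859). Without the neutrophil-high monocytes both stayed called with vehicle, Ube2c at -1.58 (adjusted p = 0.0119) and Cdc20 at -1.24 (adjusted p = 0.00318), while with ox-LDL Ube2c was not (-1.97, adjusted p = 0.0512). Without the F13a1-high macrophages, which leaves 2 macrophage libraries, neither was called with vehicle (-1.37 and -1.21, adjusted p = 0.0730 and 0.0616).

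Of the 6 mitotic kinase and checkpoint genes, Aurka (aurora kinase A, which acts at the spindle poles) was lower, at -0.97 ± 0.23 with vehicle (adjusted p = 0.00183). Bub1b (BUBR1, a spindle checkpoint kinase) was lower, at -0.69 ± 0.20 (adjusted p = 0.00917). Without the F13a1-high macrophages neither was called, with Aurka at -0.75 (adjusted p = 0.106) and Bub1b at -0.40 (adjusted p = 0.303). Aurkb, Birc5, Plk1 and Bub1 were not called in either comparison. Plk1 (polo-like kinase 1) had a log2 fold change of -0.68 ± 0.41 with vehicle. DESeq2 called Birc5 lower with vehicle (-1.09, adjusted p = 0.0246) and with ox-LDL (-1.18, adjusted p = 0.0486), and Aurkb with vehicle (-0.43, adjusted p = 0.0487). With the F13a1-low macrophages left out, edgeR called Aurkb, Birc5 and Plk1 lower in both comparisons. With the F13a1-high ones left out, it called Bub1 higher with ox-LDL (1.34, adjusted p = 0.0480). Among the spindle and centromere genes, Kif11, the motor that pushes spindle poles apart, was lower with vehicle (-1.001 ± 0.36, adjusted p = 0.0241) and not called with ox-LDL (-0.89 ± 0.56, adjusted p = 0.176). Its vehicle call was lost without the neutrophil-high monocytes (-0.82, adjusted p = 0.0713), without the F13a1-high macrophages (-0.40, adjusted p = 0.362), and without monocyte 6 or macrophage E alone (adjusted p = 0.0537 and 0.0616). Cenpa, Cenpe and Tpx2 were not called. DESeq2 called Tpx2 lower with ox-LDL (-0.996, adjusted p = 0.0484). With the F13a1-low macrophages left out, edgeR called Tpx2 lower in both comparisons (-0.92 and -1.91, adjusted p = 0.0403 and 0.00124). It then also called Cenpe lower with vehicle (-1.28, adjusted p = 0.0371) and Kif11 with ox-LDL (-1.70, adjusted p = 0.0198). Without the neutrophil-high monocytes Cenpa was called higher in macrophages with vehicle (0.54, adjusted p = 0.0239).

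The proliferation markers Mki67 and Top2a were not called in either comparison. Mki67, a coat protein of mitotic chromosomes, was at 3.18, 4.89 and 7.56 CPM (lowest, median and highest) in vehicle monocytes and at 4.48 to 9.84 CPM in vehicle macrophages, which overlap. Without the neutrophil-high monocytes it was called higher in macrophages, by 0.67 with vehicle (adjusted p = 0.0197) and by 1.57 with ox-LDL (adjusted p = 0.000405). Top2a, the topoisomerase that untangles chromosomes, had a log2 fold change of -0.63 ± 0.30 with vehicle (adjusted p = 0.0776). DESeq2 called Top2a lower with vehicle (-0.65, adjusted p = 0.0490). With the F13a1-low macrophages left out, edgeR called it lower in both comparisons (-1.11 and -1.40, adjusted p = 0.00897 and 0.00698).

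**Figure D3:**
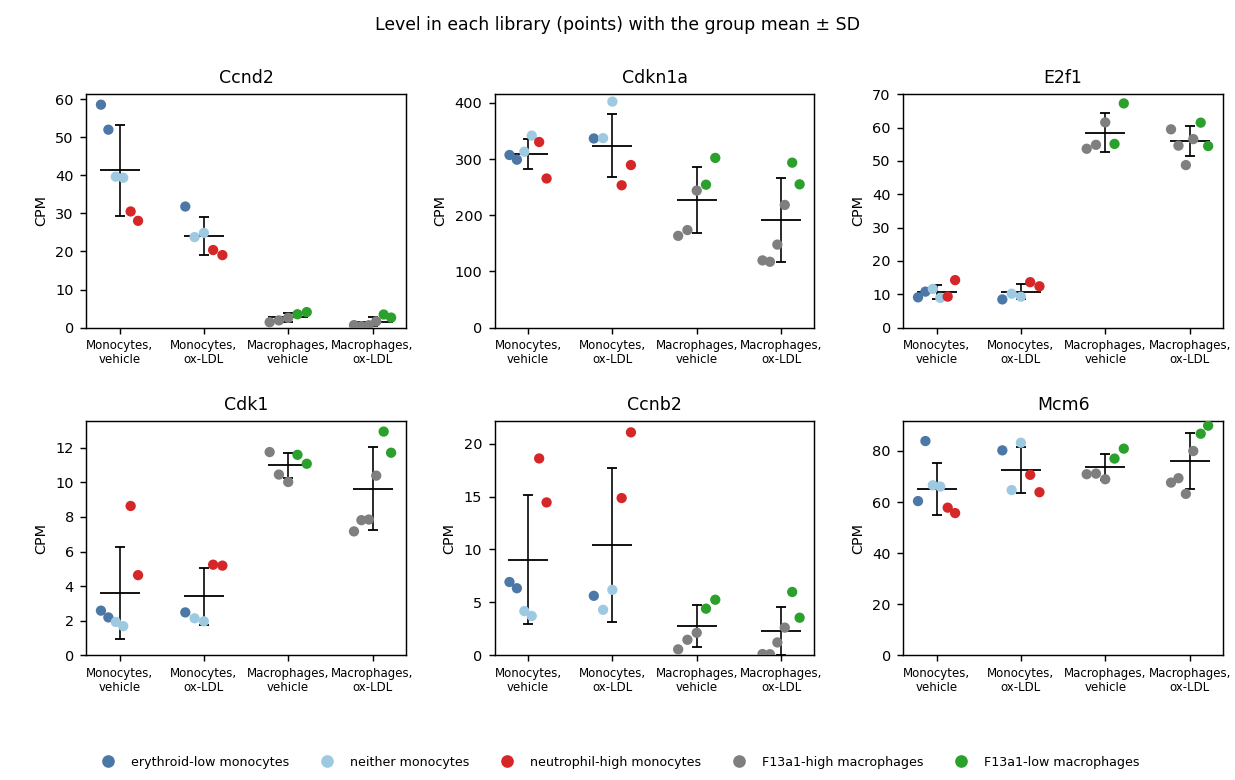
Points are CPM (y axis) of 6 genes in each library by group (x axis), coloured by library set, with bars for the group mean ± SD. E2f1 and Cdk1 are higher in macrophages, Ccnd2 is lower, and the red and green points are the highest Ccnb2 values within their cell types.

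The second question is the effect of ox-LDL. In monocytes 0 of the 40 genes were called (edgeR, 16575 genes tested), where 0.0241% of all genes tested were called. At an unadjusted p under 0.05, 1 gene was higher (Pcna) and 2 were lower (Ccnd2 and Ccne2), against 10.4% of all genes tested, 5.24% higher and 5.13% lower. The groups overlapped for all 40 genes, where 0.911% of all genes tested were wholly higher and 0.664% wholly lower. DESeq2 called 1 gene, Ccnd2, where it called 88 of all 16575 genes tested higher and 63 lower. By limma voom 0 were called, where 6 of all genes were higher and 1 lower. In macrophages 0 of 39 genes tested were called, where 2.35% of the 14543 genes tested were, 0.976% higher and 1.38% lower. At an unadjusted p under 0.05, Cdk4 was higher and Cdk2, Cdkn1b and Cenpa were lower, against 14.2% of all genes tested, 6.92% higher and 7.25% lower. The groups overlapped for all 39 genes, where 1.44% and 1.84% of all genes tested were wholly higher and lower. DESeq2 and limma voom each called 0. Cdkn2a did not pass the filter on low counts there.

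The median log2 fold change of the 40 genes was -0.01 in monocytes and -0.11 in macrophages, beside medians of all genes tested near 0.00. The test of whether the ox-LDL effect differed between the cell types called 0 of 40 genes (edgeR, 11 of 17466 genes tested, 0.063%), with 1 gene, Cdk2, at an unadjusted p under 0.05 (7.22% of all genes tested) and 0 by DESeq2 or limma voom. Cdk2 had a log2 fold change of 0.16 ± 0.11 in monocytes and -0.21 ± 0.08 in macrophages, a difference of -0.35 ± 0.13 (adjusted p = 0.583).

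**Figure D4:**
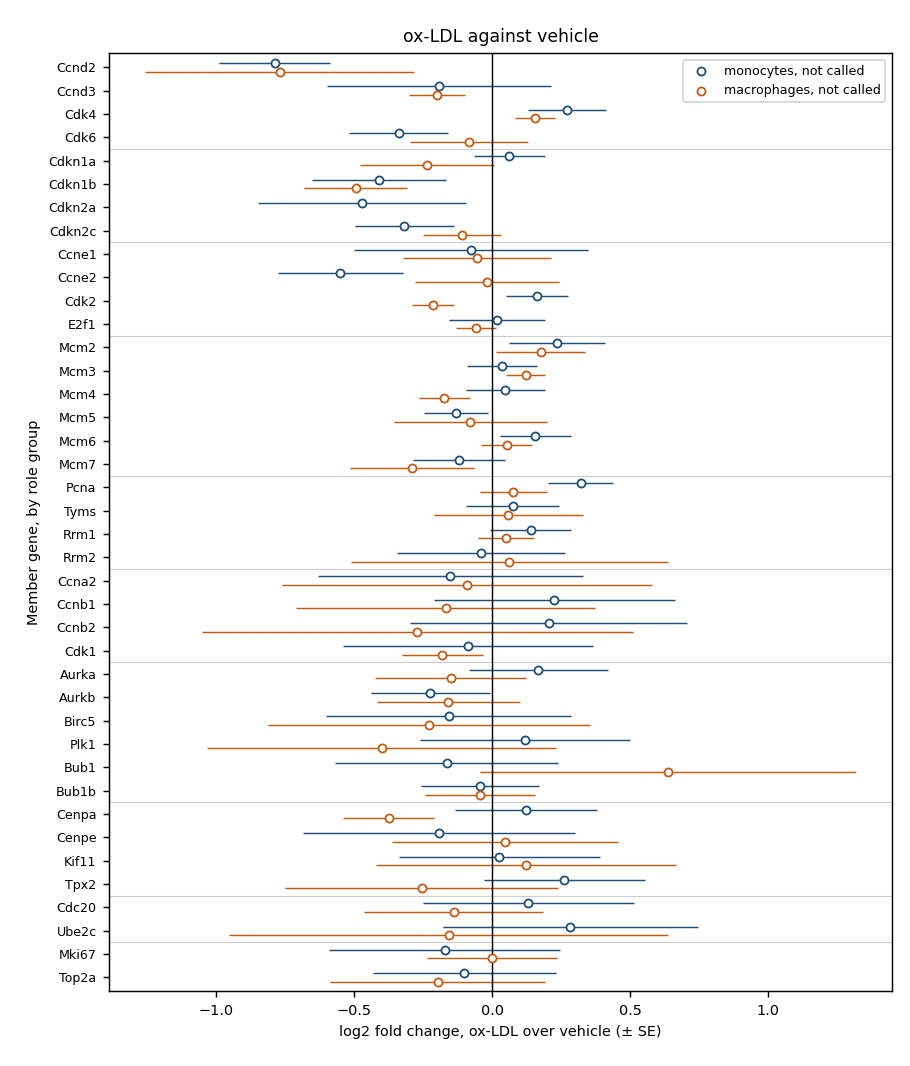
Points are log2 fold changes of ox-LDL over vehicle (x axis) with SE bars for the 40 genes (y axis), with monocytes in blue and macrophages in orange. No gene had an adjusted p under 0.05, so all points are open, and the mitotic genes have the widest bars.

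Ccnd2 was the gene nearest to a call in monocytes. It averaged 41.3 ± 11.9 CPM with vehicle (SD, n = 6) and 24.0 ± 4.98 CPM with ox-LDL (n = 5). The fitted log2 difference of -0.79 ± 0.20 was not called (adjusted p = 0.236). The groups overlap because vehicle replicates 5 and 6 (30.5 and 28.04 CPM) lie near ox-LDL replicate 7 (31.8 CPM). Within each library set, however, every ox-LDL library lay below every vehicle library. The erythroid-low set had 58.5 and 52.0 CPM with vehicle and 31.8 CPM with ox-LDL, the neutrophil-high set had 30.5 and 28.04 against 20.4 and 19.0 CPM, and the remaining 4 libraries had 39.6 and 39.3 against 23.8 and 24.9 CPM. With the sets as a covariate the log2 fold change was -0.68 ± 0.11 and was called (edgeR, adjusted p = 0.00823). That fit called 140 of all 16575 genes tested higher and 87 lower, against 4 and 0 without the covariate. Over all 20 alternatives the adjusted p of Ccnd2 ran from 0.00823 to 0.507. In macrophages the log2 fold change was -0.77 ± 0.49 (adjusted p = 0.528), and -0.86 ± 0.30 with the F13a1 sets as a covariate (adjusted p = 0.128).

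Ccnd1 (cyclin D1), not among the 40 genes, is named after its values were seen. It was at 38.3, 28.3, 46.3, 39.3, 50.7 and 37.1 CPM in vehicle monocytes and at 19.8, 10.9, 14.1, 22.2 and 16.4 CPM in ox-LDL monocytes, with no overlap. Its log2 fold change was -1.26 ± 0.20 (adjusted p = 0.0565), and -1.29 ± 0.18 with the sets as a covariate (adjusted p = 0.00465). In macrophages its values ran from 5.68 to 34.9 CPM with ox-LDL and from 6.47 to 22.2 CPM with vehicle.

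Ccne2 in monocytes had a log2 fold change of -0.55 ± 0.23 with ox-LDL (adjusted p = 0.425) and Pcna of 0.32 ± 0.12 (adjusted p = 0.366). In macrophages, Cdkn1b had a log2 fold change of -0.49 ± 0.19 (adjusted p = 0.225) and Cenpa, the centromeric histone, of -0.38 ± 0.17 (adjusted p = 0.321). Ccnb2, a mitotic gene, had 0.20 ± 0.50 in monocytes and -0.27 ± 0.78 in macrophages. With the library sets as a covariate it had 0.14 ± 0.17 and -0.24 ± 0.53, so the error was smaller, and it was not called (adjusted p = 0.723 and 0.875).

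The other genes of the cycle were read from 146 genes in 7 lists (restriction point, origin licensing, replication fork, G2/M control, kinetochore, spindle and p53 targets). With vehicle, 21 were higher in macrophages and 52 lower of 145 tested (median -0.39), and with ox-LDL 21 and 54 (median -0.46). These are 50.3% and 51.7% called, below the 63.7% and 65.4% of all genes tested. In the list of 22 restriction point genes 6 were higher and 8 lower: Cdkn2b (p15, an inhibitor of CDK4 and CDK6) was at 122 ± 18.5 CPM in vehicle monocytes and 2.29 ± 1.13 CPM in vehicle macrophages (log2 fold change -5.82 ± 0.31, adjusted p = 2.13e-09). Cdkn1c (p57, an inhibitor of the same family as p21) was higher by 3.26 ± 0.24, E2f2 lower, at -2.15 ± 0.22 and Rbl1 (p107) lower, at -1.86 ± 0.18. The family members E2f1 and E2f2 thus differed in opposite directions between the cell types.

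Of 19 origin genes 2 were higher and 4 lower (31.6% called), led by Gins3 (a subunit of the GINS helicase complex, -4.52 ± 0.14) and Cdc7 (the kinase that fires origins, -1.60 ± 0.34), with Cdc6 and Cdt1, which load the helicase, higher by 0.98 ± 0.36 and 0.62 ± 0.13. The call of Cdc6 was lost in 8 of the 20 alternatives and that of Cdc7 without the F13a1-high macrophages (adjusted p = 0.0621). Of 27 replication fork genes 3 were higher and 11 lower, led by Uhrf1 (-3.19 ± 0.33), Pold1 (-1.82 ± 0.17), Rfc4 (-1.44 ± 0.16) and Rpa3 (-1.37 ± 0.22). The G2/M list had 3 higher and 7 lower of 17, with Cks2 at -2.41 ± 0.37 and the checkpoint kinase Chek2 at 1.87 ± 0.14. The kinetochore list had 1 higher and 9 lower of 20, led by Espl1 (separase, -2.44 ± 0.27) and Ndc80 (-2.40 ± 0.29), and the spindle list 1 higher and 11 lower of 29, led by Hmgb2 (-3.38 ± 0.44) and Nusap1 (-2.41 ± 0.46).

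Of 11 p53 target genes tested, 5 were higher in macrophages and 2 lower with vehicle. That is 63.6% called, about the share of all genes tested (63.7%). Phlda3, Zmat3 and Sesn1 were higher by 2.80 ± 0.27, 2.46 ± 0.24 and 2.15 ± 0.14, and Btg2, an antiproliferative gene, was lower, at -2.61 ± 0.16. Cdkn1a, the p53 target among the 40 genes, was lower in macrophages, as given above. With ox-LDL against vehicle, 0 of 145 of these wider genes were called in monocytes by edgeR (16 at an unadjusted p under 0.05, where 10.4% of all genes tested were; 3 by DESeq2 and 1 by limma voom). In macrophages 1 of 144 was called by edgeR: E2f6, a repressive member of its family, was at 23.7 to 28.8 CPM with vehicle and 29.2 to 32.9 CPM with ox-LDL (0.28 ± 0.06, adjusted p = 0.0322). The E2f6 call was lost with library totals, with no filter on low counts and in the fit over all 4 groups. It was also lost without macrophage B, C, E, G, H, J, K or L alone. In monocytes E2f6 was at 10.0 to 12.9 CPM with vehicle and 15.8 to 19.1 CPM with ox-LDL, with no overlap (0.62 ± 0.11, adjusted p = 0.0812). DESeq2 called 1 wider gene higher and 3 lower in macrophages, where it called 305 of all 14543 genes tested higher and 393 lower. Btg2 was among those lower (-0.59 ± 0.17, adjusted p = 0.0156). With the F13a1 sets as a covariate, edgeR called 1 higher and 4 lower, where 309 and 498 of all genes were.

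The third question is how far the genes spread between libraries of a group. The median SD of log2 CPM of the 40 genes was 0.424 in vehicle monocytes and 0.444 in ox-LDL monocytes, beside 0.375 and 0.371 over all 17466 genes tested. In macrophages it was 0.409 with vehicle and 0.575 with ox-LDL, beside 0.230 and 0.228. Of the 40 genes, 0, 2, 10 and 13 lay above the 90th percentile of all genes tested in the same order of groups. The genes thus stood farther from the bulk of genes in macrophages than in monocytes, as a description with no test.

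The spread differed by role. In ox-LDL macrophages the median SD was 1.501 for the mitotic cyclins and CDK1, 1.45 for the anaphase-promoting complex genes, 1.06 for the mitotic kinases and 1.03 for the spindle genes. It was 0.216 for the MCM genes and 0.298 for the G1/S genes in the same libraries. Ccnb2 shows the extreme, at 0.109, 0.0950, 1.21, 2.61, 5.98 and 3.55 CPM in ox-LDL macrophages G, H, K, L, I and J. Ube2c rested on 1 count in replicate G and 201 counts in replicate I. Cdk1 did not share this range, with 7.16, 7.81, 7.85, 10.4, 12.9 and 11.7 CPM in the same order of libraries.

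The spread followed the library sets in both cell types. In the 4 F13a1-low macrophage libraries, 22 of 39 genes tested were above all of the other 7 and 0 were below, where 4.33% and 2.54% of all genes tested did so. The largest ratios of means were for Ube2c (5.11 times), Ccnb2 (4.12 times), Ccna2 (3.63 times) and Rrm2 (3.30 times), and the median over the 39 genes was 1.63. The 22 genes included the 2 anaphase-promoting complex genes, 3 of 4 mitotic cyclin and CDK1 genes and 5 of 6 mitotic kinase and checkpoint genes. They also included 2 of 4 spindle and centromere genes, 1 of 2 proliferation markers and 1 of 6 MCM genes (Mcm5). Mki67 and Cenpa overlapped between the sets. The inhibitor Cdkn1a was also wholly higher in these libraries (254 to 302 CPM against 117 to 244 CPM), as was Ccnd2 (2.63 to 4.07 CPM against 0.380 to 2.57 CPM). Summed over the 18 mitotic genes, the F13a1-low libraries held 104 to 132 CPM and the others 49.1 to 85.1 CPM.

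In the 4 neutrophil-high monocyte libraries, 14 of 40 genes were above all of the other 7 and 3 were below, where 6.78% and 3.51% of all genes tested did so. The 14 were Ccnd3 and 13 mitotic genes, among them Ccnb2 (3.24 times), Ccna2 (3.02 times), Ube2c (2.79 times) and Cdk1 (2.77 times). The 3 below were Cdk6, Cdkn2a and Rrm1. The MCM genes overlapped in all 6 cases, with a median ratio of 0.832. The 18 mitotic genes summed to 179 to 199 CPM in these libraries and to 75.4 to 113 CPM in the others. The summed granulocyte precursor markers (Mpo, Elane, Prtn3, Ctsg and Ms4a3) were at 62.4 CPM in replicate 10 and at 2.23 to 10.9 CPM in replicates 5, 6 and 11, and at 0.426 to 5.54 CPM in the others. Other marker sums separated the same 4 libraries from the other 7: monocyte markers were higher (1653 to 2253 CPM against 883 to 1377 CPM), megakaryocyte markers higher (71.1 to 123 CPM against 26.4 to 58.3 CPM) and dendritic cell markers lower (7402 to 8506 CPM against 9816 to 12501 CPM). The part of any of these markers in the result was not tested.

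In the 3 erythroid-low libraries 1 of 40 genes was above all of the other 8 (Mcm2) and 0 were below, where 3.61% and 2.18% of all genes tested did so. The other 8 include the neutrophil-high libraries, so this count says little of the mitotic genes. Beside the 4 libraries of neither set, with summed mitotic genes of 75.4, 75.6, 84.5 and 94.5 CPM, the erythroid-low libraries held 93.25, 98.97 and 113 CPM. In macrophages the neutrophil markers were lower in the F13a1-low libraries (133 to 189 CPM against 221 to 341 CPM), and the dendritic cell markers were higher (195 to 246 CPM against 68.6 to 151 CPM). Megakaryocyte markers were lower there (56.3 to 79.4 CPM against 100.0 to 272 CPM). In the 2 macrophage sets, 5 or 6 of 15 neutrophil, 3 or 4 of 6 megakaryocyte and 6 of 10 dendritic cell markers reached 1 CPM. The sums thus rest on part of each list. Which cells held these markers, and their part in the macrophage sets, was not tested.

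**Figure D5:**
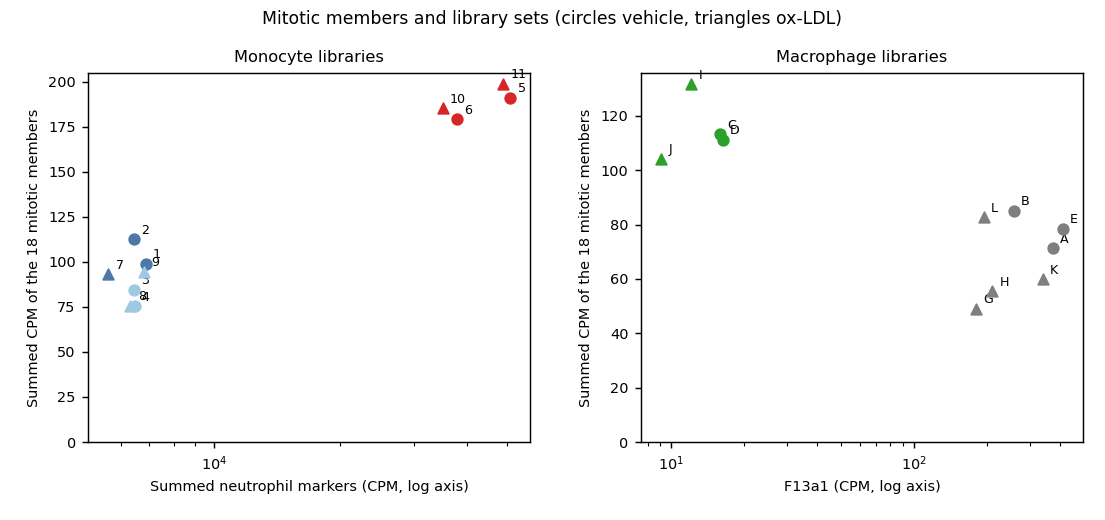
Points are the summed CPM of the 18 mitotic genes (y axis) against the summed neutrophil markers in the 11 monocyte libraries (left, log x axis) and against F13a1 in the 11 macrophage libraries (right, log x axis), with circles for vehicle, triangles for ox-LDL and numbers or letters for replicates. Neutrophil-high monocytes (red) sit at 179 to 199 CPM and F13a1-low macrophages (green) at 104 to 132 CPM, above all other libraries of their cell type under both treatments.

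The set a library belongs to also bears on the count of lower genes in the cell type comparison. With vehicle, 16 genes were lower in the full comparison, 14 without the neutrophil-high monocytes, 23 without the F13a1-low macrophages and 6 without the F13a1-high macrophages. With ox-LDL the counts were 15, 13, 23 and 6. Over all genes, those lower with vehicle were 5724 of 16288 tested, 5672 of 16291, 5135 of 17369 and 4648 of 18143 in the same order, and with ox-LDL 5545 of 15825, 5763 of 16358, 5523 of 16103 and 4551 of 17540. Calls of all genes thus also became fewer without the F13a1-high macrophages, whereas without the F13a1-low ones the 40 genes gained lower calls and all genes did not. Without the F13a1-high macrophages 2 macrophage libraries remained in each treatment. Ccnd2, Ccnd3, Cdkn1b, Cdkn2a and Cdk2 remained lower, and E2f1, Ccne1, Cdk1 and Cdk4 higher, in each of these and in every other alternative of both comparisons. The alternatives that leave out an F13a1 set, and those with the F13a1 sets as a covariate, were chosen after the data were seen.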

How the data were processed

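Per the submitters' processing notes, reads were aligned with STAR 2.7.9a to GRCm38 and counted per gene with featureCounts 2.0.3. The sources used here do not give the strand setting, the handling of multi-mapping reads or the annotation release. Per the labels, libraries were made from 10 ng of total RNA with a SMARTer Ultra Low kit on polyA RNA, with no molecular identifiers named. The authors deposited whole-number counts; the deposited CPM, FPKM and TPM equal those counts scaled by library total and gene length (0 of 55487 genes departed). The authors' TPM is quoted for levels between genes.

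Counts of each comparison's 2 groups were filtered with filterByExpr, scaled by TMM and tested with edgeR 4.0.16 (quasi-likelihood, R 4.3.3) with Benjamini-Hochberg adjustment over all genes tested. The interaction used all 4 groups. Alternatives used DESeq2 1.42.0, limma 3.58.1 (voom), other scalings, no filter, set covariates and left-out libraries. Spread is the SD of log2 CPM with a prior count of 2. The edgeR scripts were tested on simulated data. Library pairs within a group differed beyond sampling noise in all 50 cases (chi-square per gene 8.58 to 403). Lead genes of each role were named by size of the called change, up to 3 a role, and of each wider list up to 4. The members, lists and rules were chosen with earlier results of these data known.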

Additional observations from a re-analysis of the deposited data

Results flagged for a closer look

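Cdkn2a in vehicle macrophages had 1 library far from the others: replicate D was at 0.417 CPM, while the next highest was at 0.110 CPM, so that this gap took 0.819 of the group's whole range. The value in replicate D rests on 17 counts, and those of the other 4 libraries on 2 to 4 counts. It was 1 of 160 groups of values examined (40 genes in 4 groups), and chance flags about 1 in 20.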

How the results depend on the processing

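Of the 40 genes, none that was called between the cell types changed sign under any alternative run. Ccnd1, outside the 40, was not called between the cell types with ox-LDL (log2 fold change -0.06), but was at -0.93 without the F13a1-low macrophages (adjusted p = 0.0170) and at 0.88 without the F13a1-high ones (adjusted p = 0.0187), both by edgeR; the cause was not tested. For ox-LDL in monocytes, 1 gene (Ccnd2) was called, lower, with DESeq2, with the library sets as a covariate and with marker sums as covariates, against 0 as reported. These settings also called more of all 16575 genes tested than the 4 as reported. DESeq2 called 88 higher and 63 lower, the sets 140 and 87, and the marker sums 132 and 82. Leaving out single libraries gave 0 to 0 of the 40 genes, as it did in macrophages and for the interaction. Macrophages against monocytes with vehicle gave 23 calls (7 higher, 16 lower): 22 to 26 leaving out single libraries (6 to 9 higher, 15 to 20 lower), and 14 with 6 lower without the F13a1-high macrophages. With ox-LDL 23 calls (8 higher, 15 lower) became 21 to 25 (7 to 9, 14 to 18), 23 lower without the F13a1-low and 6 lower without the F13a1-high macrophages. When single libraries were left out, the median SD of the 40 genes lay between 0.405 and 0.474 (monocytes, vehicle), 0.343 and 0.471 (monocytes, ox-LDL), 0.308 and 0.468 (macrophages, vehicle), and 0.511 and 0.631 (macrophages, ox-LDL). No paired analysis was possible because the groups share no replicate numbers. Cdkn2a rests on 1 to 17 counts per macrophage library, which limits its fold change.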
